A study of Homo sapiens with 10 samples.

Results

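The respiratory chain subunits encoded in the nucleus were examined in U2932, a human cell line established from a diffuse large B cell lymphoma, which is a tumour of mature B cells. Gene names chose the members: protein-coding genes whose symbol starts with NDUFA, NDUFB, NDUFC, NDUFS, NDUFV, UQCR, ATP5 or COX4 to COX8, with SDHA, SDHB, SDHC, SDHD, CYC1 and CYCS, and a mean of at least 1 CPM (a library's counts scaled to a total of 1000000) over all libraries. Of 21174 gene identifiers in the table, 100 matched by name and 93 reached that level. They comprise 37 genes of complex I, 4 of complex II, 10 of complex III, 13 grouped with complex IV, 18 of complex V and CYCS. The name rule also took in 8 assembly factors of complex I, which are not subunits, and 2 read-through genes (NDUFC2-KCTD14 and ATP5MF-PTCD1) that share exons with a subunit gene. The 7 genes under the level rule were COX4I2, COX6A2, COX6B2, COX7A1, COX7B2, COX8C and ATP5MGL, each with at most 1 read in all libraries together.

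RNA was sequenced from 5 clones labelled CREBBP+/- (libraries Het_6 to Het_10) and 5 labelled CREBBP+/+ (WT_1 to WT_5). CREBBP encodes a histone acetyltransferase that serves as a transcriptional coactivator, and the comparison asks which transcripts differ when 1 of its alleles is altered. All clones were grown alike in RPMI medium with serum, and none received a treatment that the labels name. The sources used here do not give how the allele was altered or how each clone was derived, and the names Het_6 to Het_10 are on no labelled sample, so those libraries are known by genotype only.

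The respiratory chain sits in the inner mitochondrial membrane. Complex I takes electrons from NADH and complex II from succinate, ubiquinone carries them to complex III, cytochrome c carries them to complex IV, which reduces oxygen, and complex V makes ATP from the proton gradient. Most subunits are encoded in the nucleus and imported. Complexes I, III, IV and V also hold subunits encoded in mitochondrial DNA, and complex II does not. In diffuse large B cell lymphoma, tumours differ in how strongly they express genes of oxidative phosphorylation.

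Total counts ran from 10615977 (Het_9) to 23020694 (Het_6). CREBBP itself had 71.4, 77.4, 56.8, 61.5 and 80.7 CPM in Het_6 to Het_10, against 118, 103, 103, 115 and 136 CPM in WT_1 to WT_5. The groups did not overlap (exact two-sided permutation p = 0.00794, the smallest this design can give). In edgeR over all genes CREBBP did not pass, with a log2 fold change of -0.73 (SE 0.12, adjusted p = 0.395). A gene can thus miss the edgeR threshold used below although its groups do not overlap. Clustered on 11867 other genes, the libraries formed 3 sets that cross the genotypes: Het_8 with WT_1 and WT_2 (the Het_8 set), Het_9 with Het_10, and Het_6 and Het_7 with WT_3, WT_4 and WT_5 (the set of 5). All 7 B cell markers checked were expressed. Of 15 markers of other cell types, 4 had no read and 2 were high enough to test. All 15 together summed to 16.0 to 30.1 CPM in CREBBP+/- clones and 3.44 to 25.7 CPM in CREBBP+/+ clones. Most of it was EPCAM, except in WT_2, where EPCAM had 1.42 CPM. The part of these markers in the results below was not tested.

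Between the genotypes, no respiratory chain gene passed the threshold of edgeR in CREBBP+/- against CREBBP+/+ libraries, and CYC1 alone passed that of DESeq2. All 93 members were among the 11961 genes tested by the quasi-likelihood test of edgeR, and 0 of them had an adjusted p under 0.05, as had 0% of all genes tested. At an unadjusted p under 0.05, 2 members were lower (CYC1 and COX6A1) and 0 higher, where 2.6% of all genes were lower and 2.38% higher. DESeq2 called 32 genes (0.268%), of which CYC1 was the 1 member. The smallest edgeR adjusted p among members was 0.842. In bulk libraries, a change in some cells and a smaller change in all of them cannot be told apart.

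Log2 fold changes (CREBBP+/- over CREBBP+/+) of the members ran from -0.42 for ATP5MC2 to 0.17 for NDUFA5. Their median was -0.08 and that of all genes tested -0.01, and 68 of 93 were below 0 (73.1%, against 52.4% of all genes). The 95% interval lay within a 1.5-fold change in either direction for 81 members, so for these a larger difference between the genotypes was outside the interval. For the other 12, among them SDHA, NDUFS6, COX6C, ATP5MC2 and ATP5IF1, the interval was too wide to say so.

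**Figure D1:**
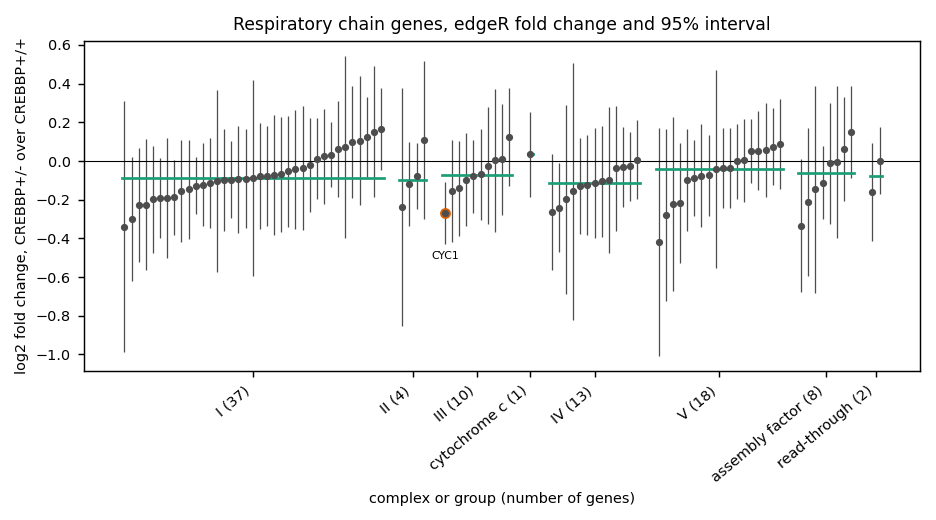
Log2 fold change of each of the 93 members, CREBBP+/- over CREBBP+/+ libraries (n = 5 each), by complex, as edgeR fitted it. Points are fitted values with 95% intervals, the green line in each group is its median, and CYC1 is in orange; most points lie slightly below 0 and most intervals cross it.

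The shift was small in every complex. The median log2 fold change was -0.09 in complex I, -0.10 in complex II, -0.07 in complex III, -0.11 in complex IV and -0.04 in complex V, with 27 of 37, 3 of 4, 7 of 10, 12 of 13 and 12 of 18 members below 0. With the library sets as a covariate the median of complex V was 0.00147. Other genes with short transcripts had medians near these. The 592 other genes whose canonical transcript was no longer than the members' median of 857 bases had a median of -0.07, and the 120 that were also at or above the members' median level had -0.11. The longer 11201 genes had -0.01. At or above the members' median level, whatever their length, the 2524 other genes had -0.04. The part of transcript length and level in the members' median was not tested.

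Summed over a complex, the levels overlapped between genotypes. Complex I subunits summed to 2850, 2940, 2584, 2710 and 2728 CPM in Het_6 to Het_10, against 2885, 2936, 3036, 2989 and 2785 CPM in WT_1 to WT_5. Means were 2763 ± 137 CPM in CREBBP+/- clones and 2926 ± 97.1 CPM in CREBBP+/+ clones (SD, n = 5 each), a ratio of 0.944. Complex IV summed to 1631 ± 139 CPM in CREBBP+/- clones and 1766 ± 72.3 CPM in CREBBP+/+ clones, and its lowest library was Het_8 at 1401 CPM. Complex III summed to 1052 ± 50.5 CPM in CREBBP+/- clones and 1123 ± 27.9 CPM in CREBBP+/+ clones, complex II to 549 ± 83.6 and 572 ± 66.5 CPM, and complex V to 4859 ± 227 and 4979 ± 266 CPM, in the same order. The ratio for complex V was 0.976 and turned to 1.01 when library totals without mitochondrial counts set the scale.

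**Figure D2:**
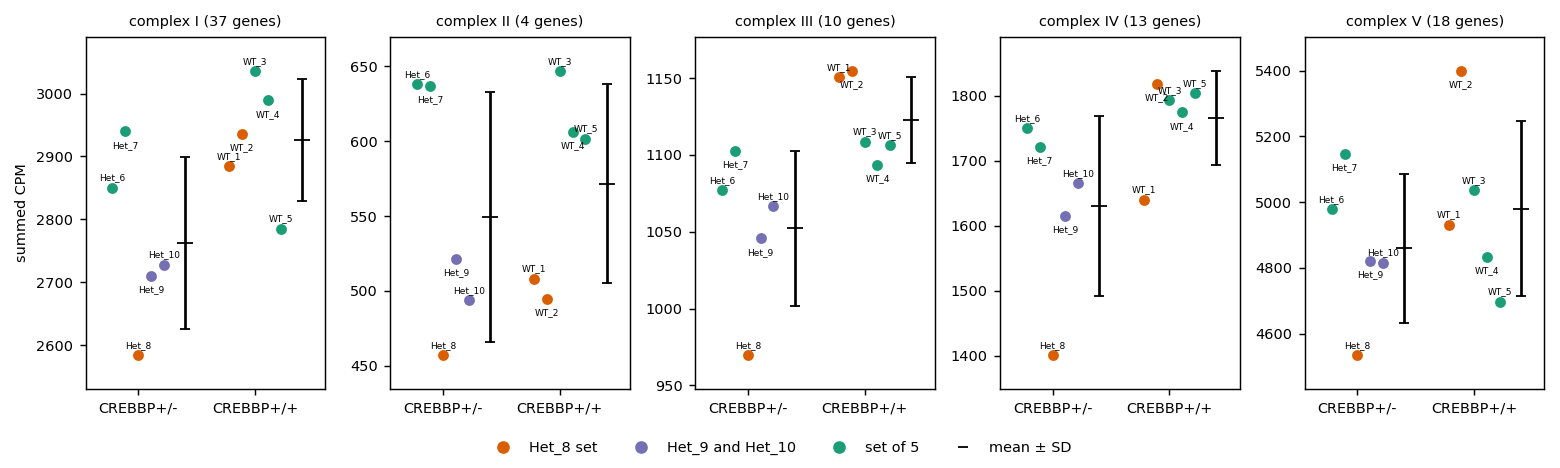
Summed TMM-scaled CPM of the nuclear-encoded members of each complex per library, CREBBP+/- left and CREBBP+/+ right; bars at the right of each group are mean ± SD (n = 5). Colours give the library set, and the genotypes overlap in each complex, with Het_8 (1401 CPM in complex IV) lowest in all of them.

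Within the library sets, the median genotype difference over all members was negative for Het_8 and slightly positive for Het_6 and Het_7. That of complex I was negative for Het_8 and only -0.01 for Het_6 and Het_7, with 19 of 37 members below 0 in the latter. The difference between sets was not tested. Het_8 was below the mean of WT_1 and WT_2 for 80 of 93 members, where 49.3% of all genes were, with a median difference of -0.20 in log2 CPM (0.00 for all genes). In the set of 5, Het_6 and Het_7 were below WT_3, WT_4 and WT_5 for 38 of 93 members, where 50.3% of all genes were, with a median difference of 0.03. Complex by complex, the median difference of Het_8 was -0.18, -0.23, -0.25, -0.23 and -0.14 for complexes I to V, and that of Het_6 and Het_7 -0.01, 0.05, 0.04, 0.01 and 0.09. Het_8 is a single library, so its difference has no replicate check. Short and highly expressed other genes were also low in Het_8: 70.8% of the 120 were below WT_1 and WT_2, with a median of -0.12. Without Het_8, the members' median log2 fold change between genotypes was -0.04.

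Het_9 and Het_10 form a set without a CREBBP+/+ library, so a fit with the sets as a covariate takes its genotype difference from the other libraries. Het_8 is then the only CREBBP+/- library of its set. With the library sets as a covariate, 14 members were lower and 2 higher at an unadjusted edgeR p under 0.05, where 7.67% of all genes were lower and 5.01% higher. The 14 were NDUFB2, NDUFB7, NDUFB9, NDUFB11, NDUFC2 and NDUFS7 of complex I, SDHB, CYC1, and COX4I1, COX5A, COX6C and COX8A of complex IV, the assembly factor NDUFAF6, and NDUFC2-KCTD14, which shares exons with NDUFC2. NDUFA10 and ATP5F1E were the higher ones. No member, and 0% of all genes, passed the adjusted threshold in edgeR with this covariate. DESeq2 with it called 190 genes (1.59%), with CYC1 as the 1 member. The sets were formed from the expression of these same libraries, so p-values with this covariate may be too small. The counts with it are therefore not a second test of the genotype difference.

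Complex I is the largest, and for 34 of its 37 members the 95% interval of the genotype difference lay within 1.5-fold. NDUFS6, an accessory subunit of the peripheral arm, had 71.1, 78.3, 43.4, 33.7 and 36.1 CPM in Het_6 to Het_10, against 48.9, 41.5, 83.2, 89.9 and 69.0 CPM in WT_1 to WT_5. Low values occurred in both genotypes, in the Het_8 set and in Het_9 and Het_10, and the log2 fold change of -0.34 (SE 0.29) did not pass the test. NDUFS8, which carries iron-sulfur clusters on the electron path, had the smallest unadjusted edgeR p of complex I. It had 48.8 ± 2.30 CPM in CREBBP+/- clones and 55.5 ± 5.51 CPM in CREBBP+/+ clones (SD, n = 5 each). Its log2 fold change was -0.19 (SE 0.09, adjusted p in edgeR = 0.977). NDUFS3, chosen after the values were seen, had a smaller unadjusted p in DESeq2 (0.0377, against 0.0482 for NDUFS8), and its groups overlapped. NDUFB2 and NDUFS5, both accessory subunits, had log2 fold changes of -0.30 (SE 0.14) and -0.19 (SE 0.09), and their groups overlapped.

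Complex II, succinate dehydrogenase, has 4 subunits: the flavoprotein SDHA, the iron-sulfur protein SDHB, and the membrane anchors SDHC and SDHD. SDHA had 224, 220, 160, 91.1 and 87.7 CPM in Het_6 to Het_10, against 154, 144, 214, 218 and 194 CPM in WT_1 to WT_5. Its low libraries were Het_9 and Het_10, then the Het_8 set, and the genotypes overlapped (log2 fold change -0.24, SE 0.28). SDHD had 259, 261, 151, 261 and 239 CPM in Het_6 to Het_10, against 168, 172, 276, 224 and 245 CPM in WT_1 to WT_5, so that the Het_8 set alone was low. SDHB had 80.2 ± 8.02 CPM in CREBBP+/- clones and 87.1 ± 8.68 CPM in CREBBP+/+ clones, and SDHC had 78.5 ± 4.82 and 82.9 ± 5.36 CPM, in the same order. The 4 subunits of 1 complex thus had different patterns over the libraries.

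**Figure D3:**
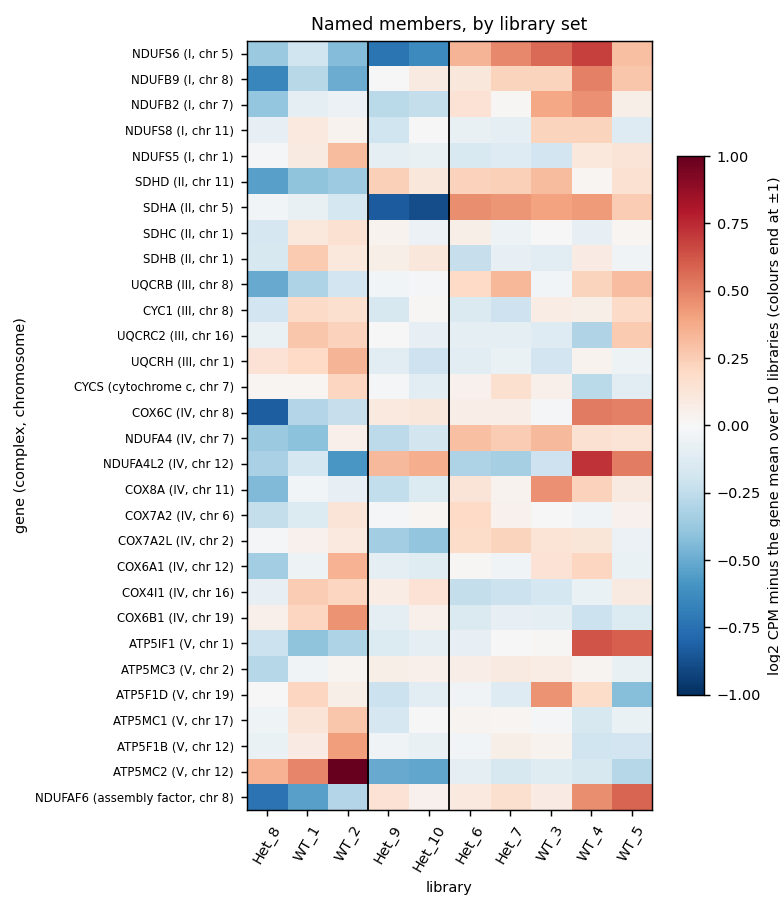
Log2 CPM of the 30 members named by rule, each minus its mean over the 10 libraries (colour scale from -1 to 1), with the libraries ordered as the Het_8 set, Het_9 with Het_10, and the set of 5. The strongest blocks of colour follow the sets, such as SDHA and NDUFS6 in Het_9 and Het_10 and COX6C and NDUFB9 in the Het_8 set.

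Complex III passes electrons from ubiquinol to cytochrome c, and CYC1, its cytochrome c1 subunit, was the 1 member whose genotypes did not overlap. CYC1 (ENSG00000179091, GRCh38 chromosome 8, 144095039 to 144097525) had 137, 131, 132, 136 and 153 CPM in Het_6 to Het_10, against 172, 169, 159, 157 and 173 CPM in WT_1 to WT_5. Every CREBBP+/- library lay below every CREBBP+/+ library, the nearest being Het_10 at 153 and WT_4 at 157 CPM. No other member separated the genotypes in this way, where 0.594% of all genes lay wholly below and 0.426% wholly above. A count of 1 in 93 members is close to those shares of all genes. CYC1 averaged 138 ± 8.63 CPM in CREBBP+/- clones and 166 ± 7.49 CPM in CREBBP+/+ clones (SD, n = 5 each), a 1.21-fold lower level. Its log2 fold change was -0.27 (SE 0.07, 95% interval -0.43 to -0.11). Its exact two-sided permutation p was 0.00794, which every gene without overlap has in this design, so it adds nothing to the separation itself.

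CYC1 did not pass in edgeR over all genes (adjusted p = 0.842), and passed in DESeq2 (adjusted p = 0.0313). Leaving out 1 library at a time, DESeq2 called it without Het_10 (adjusted p = 0.00157), WT_3 (0.0254) or WT_4 (0.0460), and lost it without any of the other 7 libraries, with an adjusted p of 0.0600 without Het_8 to 0.260 without Het_9. The difference was present in both sets that hold both genotypes: -0.37 in log2 CPM for Het_8 against WT_1 and WT_2, and -0.28 for Het_6 and Het_7 against WT_3, WT_4 and WT_5.

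Genes near CYC1 on chromosome 8 were lower too. Among the 72 other tested genes within 5 Mb, the median log2 fold change of CREBBP+/- over CREBBP+/+ was -0.31, with 65 below 0. In the set of 5, Het_6 and Het_7 were lower than WT_3, WT_4 and WT_5 for 71 of the 72, with a median difference of -0.40, where CYC1 differed by -0.28. In the Het_8 set the neighbours differed by a median of -0.05 (39 of 72 below 0), while CYC1 differed by -0.37. Whether CYC1 differs with its chromosome region or on its own was not tested.

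**Figure D4:**
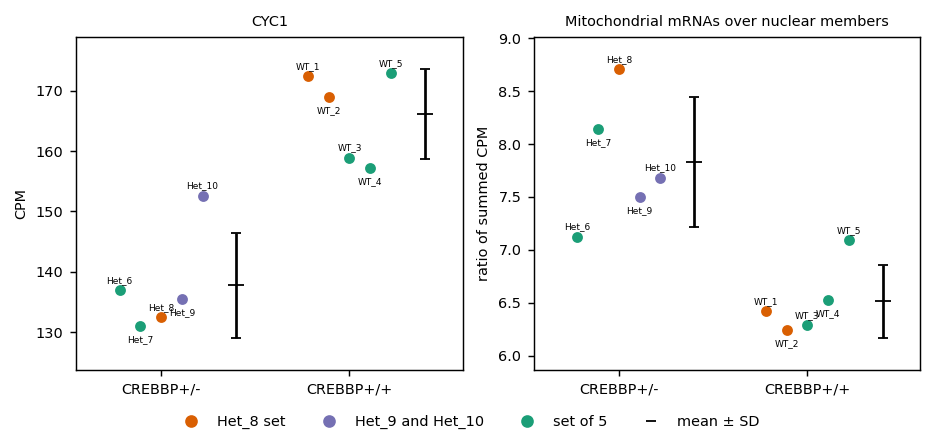
Left, CPM of CYC1 per library; right, summed CPM of the 13 mRNAs of the mitochondrial genome divided by that of the nuclear-encoded members. CREBBP+/- libraries stand left of CREBBP+/+, colours give the library set and bars are mean ± SD (n = 5); neither measure overlaps between genotypes, at 131 to 153 against 157 to 173 CPM, and at 7.12 to 8.71 against 6.24 to 7.09.

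The other subunits of complex III did not separate the genotypes. UQCRC2, a core subunit, had 140 ± 3.81 CPM in CREBBP+/- clones and 156 ± 27.5 CPM in CREBBP+/+ clones. UQCRH, the hinge protein beside cytochrome c1, had 127 ± 11.7 CPM in CREBBP+/- clones and 140 ± 20.4 CPM in CREBBP+/+ clones; UQCRHL is a near-identical copy of it, so reads could be split between the loci. UQCRB, which binds ubiquinone, had a log2 fold change of 0.00 (SE 0.17). CYCS, the mobile cytochrome c that is also known for its role in apoptosis, had 265, 287, 260, 253 and 238 CPM in Het_6 to Het_10, against 259, 298, 265, 212 and 237 CPM in WT_1 to WT_5, and its interval of -0.19 to 0.25 in log2 fold change spans no difference.

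Complex IV, cytochrome c oxidase, had 12 of 13 members below 0 with a median of -0.11. COX6A1, the form of subunit VIa expressed outside heart and muscle, had 86.3, 83.7, 67.4, 80.4 and 78.8 CPM in Het_6 to Het_10, against 82.9, 109, 94.99, 99.7 and 81.9 CPM in WT_1 to WT_5. The groups overlapped, since WT_1 and WT_5 lay below Het_6 and Het_7, and its log2 fold change was -0.24 (SE 0.10). COX6A1 had an exact two-sided permutation p of 0.0635 and an adjusted p of 0.977 in edgeR. COX8A, the smallest of the ubiquitous subunits, had a log2 fold change of -0.26 (SE 0.14), and COX4I1, a regulatory subunit, -0.13 (SE 0.11).

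Several complex IV subunits have forms from more than 1 gene, and reads came from the widely expressed form. COX4I1, COX6A1, COX6B1, COX7A2 and COX8A averaged 224, 79.3, 134, 86.6 and 84.3 CPM in CREBBP+/- clones and 245, 93.7, 144, 86.1 and 101 CPM in CREBBP+/+ clones. Their relatives known from lung, muscle, heart or testis (COX4I2, COX6A2, COX6B2, COX7A1 and COX8C) had 0 reads, except COX6B2 with 1. NDUFA4, long taken for a complex I subunit and now placed in complex IV, averaged 223 ± 48.6 CPM in CREBBP+/- clones and 239 ± 42.1 CPM in CREBBP+/+ clones. NDUFA4L2, its hypoxia-inducible relative, averaged 2.82 ± 0.738 CPM in CREBBP+/- clones and 3.14 ± 1.19 CPM in CREBBP+/+ clones. COX7A2L, which helps to join complexes III and IV, was lowest in Het_9 and Het_10 at 64.8 and 62.7 CPM, against 79.1 to 96.1 CPM in the set of 5.

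Complex V, ATP synthase, had 12 of 18 members below 0. ATP5F1B, the catalytic beta subunit, had 936, 993, 914, 930 and 904 CPM in Het_6 to Het_10, against 1010, 1274, 977, 833 and 837 CPM in WT_1 to WT_5, so that the CREBBP+/- values lay inside the range of the CREBBP+/+ values. Per length it was the highest member whether the union of exons or the canonical transcript set the length (a mean of 1201 and 995 TPM). Several genes (ATP5MC1, ATP5MC2 and ATP5MC3) encode the same mature c subunit of the rotor, and they differed in pattern. ATP5MC2 had 156, 150, 213, 118 and 117 CPM in Het_6 to Het_10, against 235, 334, 154, 150 and 137 CPM in WT_1 to WT_5, high in the Het_8 set and low in Het_9 and Het_10. ATP5MC1 averaged 113 ± 6.16 CPM in CREBBP+/- clones and 119 ± 14.6 CPM in CREBBP+/+ clones, and ATP5MC3 285 ± 29.0 and 285 ± 11.3 CPM, in the same order. ATP5IF1, the inhibitor of ATP hydrolysis by the enzyme, had 155 to 178 CPM in CREBBP+/- clones, against 135, 145, 180, 277 and 272 CPM in WT_1 to WT_5. WT_4 and WT_5 were its high libraries, and its log2 fold change of -0.28 (SE 0.20) did not pass the test.

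The 8 complex I assembly factors that the name rule took in had a median log2 fold change of -0.06 with 6 below 0, and none passed at an unadjusted p under 0.05. NDUFAF6, which acts early in assembly, had 21.2 ± 4.69 CPM in CREBBP+/- clones and 23.5 ± 7.51 CPM in CREBBP+/+ clones. A separate list of assembly factors of all complexes holds none of these 8: of its 48 genes tested, 36 were below 0, with a median of -0.05 and 0 at an unadjusted p under 0.05. Of 15 regulators of mitochondrial biogenesis tested, 11 were below 0 (median -0.10) and 0 passed at that level, and 14 enzymes of the tricarboxylic acid cycle split 7 to 7 with a median of 0.00.

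The 13 mRNAs of the mitochondrial genome, which encode the remaining subunits of complexes I, III, IV and V, stood on the other side of 0. All 13 had positive log2 fold changes, with a median of 0.25. At an unadjusted edgeR p under 0.05, 5 of them were higher, where 2.38% of all genes were. None passed the adjusted threshold. DESeq2 called 2 of the 13 (MT-ATP6, adjusted p = 0.0107, and MT-ATP8, adjusted p = 0.0136), where it called 0.268% of all genes. All but MT-ND6 are encoded on the same strand and transcribed together, so they are not independent of each other. MT-ND6 had 96.3, 113, 108, 294 and 363 CPM in Het_6 to Het_10, against 139, 81.2, 76.3, 148 and 126 CPM in WT_1 to WT_5, with Het_9 and Het_10 high. The ratio of their summed CPM to that of the nuclear-encoded members was 7.12, 8.14, 8.71, 7.50 and 7.68 in Het_6 to Het_10, against 6.42, 6.24, 6.29, 6.53 and 7.09 in WT_1 to WT_5. Every CREBBP+/- library lay above every CREBBP+/+ library, narrowly between Het_6 at 7.12 and WT_5 at 7.09. The mean was 7.83 ± 0.612 in CREBBP+/- and 6.51 ± 0.342 in CREBBP+/+ libraries (SD, n = 5 each). Within the Het_8 set the ratio was 8.71 in Het_8, against 6.42 and 6.24 in WT_1 and WT_2, and within the set of 5 it was 7.12 and 8.14 in Het_6 and Het_7, against 6.29, 6.53 and 7.09 in WT_3, WT_4 and WT_5. The ratio does not depend on library scaling. Before division, the mitochondrial sum already separated the genotypes. Its lowest CREBBP+/- library was Het_9 at 83740 CPM, and its highest CREBBP+/+ library was WT_5 at 81209 CPM. The sum of the nuclear-encoded members overlapped, with Het_7 at 12076 CPM above WT_5 at 11453 CPM. The separation seen in the ratio was thus already present in its numerator.

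The sets of libraries took a larger share of the members' variance than the genotypes did. Genotype accounted for a median of 7.11% of a member's variance in log2 CPM and the 3 sets for 54.1%, against 6.07% and 63.2% over all genes tested. The sets were formed from the expression of these same libraries and outnumber the genotypes, so a larger share for them was largely built in. These shares and what follows are a description without a test. Against the set of 5, the Het_8 set was more than 1.5-fold lower for 7 members, where 15.5% of all genes were: ATP5MG, NDUFS6, NDUFAF6, NDUFS4, NDUFB9, COX6C and SDHD. It was more than 1.5-fold higher for ATP5MC2 and NDUFA10, where 13.2% of all genes were. Het_9 and Het_10 were more than 1.5-fold lower than the set of 5 for SDHA, NDUFS6 and NDUFV1, where 8.18% of all genes were, and no member was higher by that much, where 9.08% were. Of these genes, ATP5MG, NDUFS4, NDUFA10 and NDUFV1, and ATP5MK below, were chosen after their values were seen.

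Without overlap, the Het_8 set lay below the set of 5 for 25 members and above it for 11, where 23.9% and 21.9% of all genes did. Het_9 and Het_10 lay below the set of 5 for 28 members and above it for 6, where 20.9% and 19.3% did. ATP5MG, a small subunit of the membrane part of ATP synthase, shows the Het_8 set's pattern: 324, 348 and 354 CPM in Het_8, WT_1 and WT_2, against 571 to 684 CPM in the set of 5, with Het_9 and Het_10 between at 454 and 503 CPM. NDUFA10, an accessory subunit of complex I, shows the reverse, with 91.3, 82.2 and 77.4 CPM in Het_8, WT_1 and WT_2, against 48.5 to 56.0 CPM in the set of 5.

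Several members that were low in a set lay among genes that were low in it too. SDHA (GRCh38 chromosome 5, 218303 to 257082) and NDUFS6 (chromosome 5, 1801407 to 1816048) were 2.39-fold and 2.23-fold lower in Het_9 and Het_10 than in the set of 5, with differences of -1.26 and -1.16 in log2 CPM. Their other neighbours within 5 Mb had medians of -1.05 (15 of 16 genes below 0) and -1.03 (20 of 21). The neighbours of the 2 members overlap, so these are not separate counts.

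On chromosome 8, which carries 5 members, NDUFAF6, UQCRB, COX6C and NDUFB9 (between 94895533 and 124580648) were lower in the Het_8 set than in the set of 5, with differences of -0.80, -0.54, -0.68 and -0.74 in log2 CPM. Their neighbours' medians were -0.61, -0.61, -0.65 and -0.61, and the windows of the first 3 overlap. CYC1, nearer the end of the same chromosome, differed between these sets by 0.06, and its neighbours had a median of -0.24. COX6C, for example, had 106, 153 and 159 CPM in Het_8, WT_1 and WT_2, against 185 to 268 CPM in the set of 5.

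Of the other members, some differed from their surroundings and some were close to them. ATP5MC2 differed by 0.78 in the Het_8 set, where its 161 neighbours had a median of 0.07, and NDUFS4 by -0.75, where its 16 neighbours had a median of -0.01. SDHD and ATP5MG on chromosome 11 differed by -0.63 and -0.84, with neighbours at -0.34 and -0.28. NDUFA10 on chromosome 2 and ATP5MK on chromosome 10, another small membrane subunit of ATP synthase, differed by 0.68 and 0.51, close to their neighbours at 0.53 and 0.54. Whether the number of chromosome copies differs between the libraries was not tested, since the files hold RNA counts alone.

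**Figure D5:**
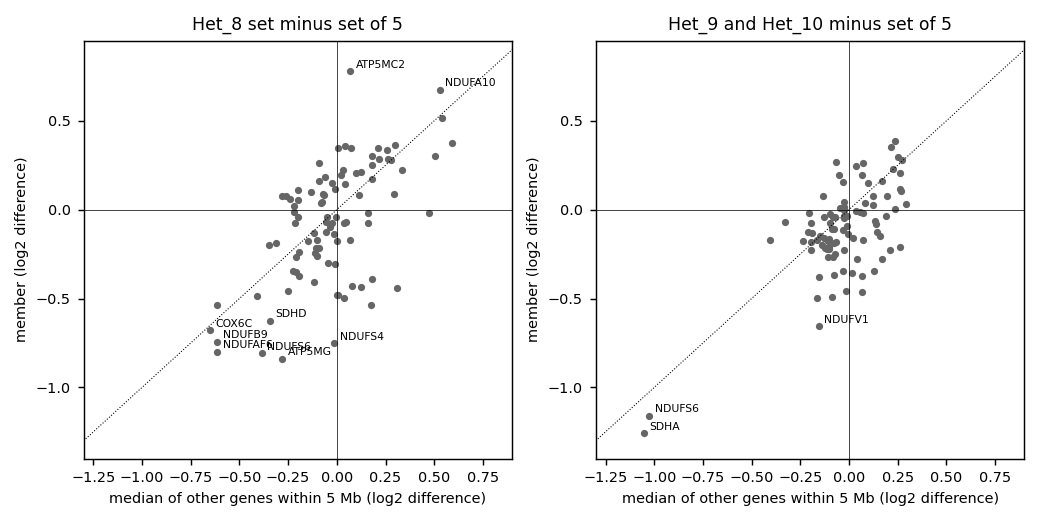
Log2 difference of members against the median of the other tested genes within 5 Mb, for the Het_8 set and for Het_9 and Het_10, each minus the set of 5. Each point is 1 member, the dotted line marks equality, and SDHA and NDUFS6 (own -1.26 and -1.16, neighbours -1.05 and -1.03) and the chromosome 8 members lie near it, while ATP5MC2 (0.78 and 0.07) lies away from it.

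Promoters were searched for letters of factors known to drive respiratory chain genes, because CREBBP acts through DNA-bound factors such as CREB, from which it has its name. RefSeq promoters (GRCh38.p14, 250 bases before to 50 after the start) were at hand for 75 of the 93 members. CYC1 is among the 18 members without one, so its promoter was not searched. On either strand, the letters of NRF1 (GCGC, any 2 bases, GCGC) occurred in 18 of 75 (24%, against 8.78% of all 27305 promoters), CCGGAAG of ETS factors in 21 (28%, against 10.7%) and the YY1 motif in 7 (9.33%, against 1.28%). TGACGTCA, the full CREB site, occurred in 5 (6.67%, against 1.98%): ATP5MC1, ATP5ME, NDUFA10, NDUFB2 and SDHB. TCAAGGTCA of oestrogen-related receptors occurred in SDHD (1 of 75, against 0.359%). The 27305 promoters were not limited to genes expressed here or matched in base content, so the shares are not a like comparison. A match is a description of letters and not a site shown to be bound. The members with the CREB letters had log2 fold changes of -0.07, 0.06, -0.09, -0.30 and -0.12 between genotypes in the order named, none past the test.

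The promoters of 3 complex II subunits, which show how genes of 1 complex carry different motifs, and of NDUFB2 and NDUFA10, which carry the CREB letters, are given 5′ to 3′ on the gene's strand, with motif matches in capitals. SDHA (chr5:218070-218369, plus strand) holds 4 NRF1 matches. SDHD (chr11:112086623-112086922, plus strand) holds 1 each of NRF1, ETS and the receptor motif, the last 2 on the other strand. SDHB (chr1:17053983-17054282, minus strand) holds 1 each of ETS, CREB and YY1, the last being the third run of capitals. NDUFB2 (chr7:140696458-140696757, plus strand) and NDUFA10 (chr2:240025293-240025592, minus strand) hold 1 CREB match each. Matches of different motifs overlapped in 0 of the printed promoters.
SDHA: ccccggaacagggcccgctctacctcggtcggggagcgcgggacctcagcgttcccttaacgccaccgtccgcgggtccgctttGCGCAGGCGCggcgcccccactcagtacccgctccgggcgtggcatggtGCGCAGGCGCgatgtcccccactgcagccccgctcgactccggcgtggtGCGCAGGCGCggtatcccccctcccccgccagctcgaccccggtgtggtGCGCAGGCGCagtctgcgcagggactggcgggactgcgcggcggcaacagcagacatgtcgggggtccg
SDHD: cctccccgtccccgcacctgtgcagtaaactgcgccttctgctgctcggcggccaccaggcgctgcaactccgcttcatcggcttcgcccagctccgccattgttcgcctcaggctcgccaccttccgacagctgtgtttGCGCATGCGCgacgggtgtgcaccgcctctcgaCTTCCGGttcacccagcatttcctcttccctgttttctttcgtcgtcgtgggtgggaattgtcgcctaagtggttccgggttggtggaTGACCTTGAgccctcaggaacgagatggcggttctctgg
SDHB: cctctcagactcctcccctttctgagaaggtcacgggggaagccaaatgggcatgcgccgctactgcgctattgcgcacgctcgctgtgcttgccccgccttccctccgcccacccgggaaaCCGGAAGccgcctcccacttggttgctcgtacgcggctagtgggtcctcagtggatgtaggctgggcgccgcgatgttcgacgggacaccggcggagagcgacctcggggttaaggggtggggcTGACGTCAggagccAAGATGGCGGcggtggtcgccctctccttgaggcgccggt
NDUFB2: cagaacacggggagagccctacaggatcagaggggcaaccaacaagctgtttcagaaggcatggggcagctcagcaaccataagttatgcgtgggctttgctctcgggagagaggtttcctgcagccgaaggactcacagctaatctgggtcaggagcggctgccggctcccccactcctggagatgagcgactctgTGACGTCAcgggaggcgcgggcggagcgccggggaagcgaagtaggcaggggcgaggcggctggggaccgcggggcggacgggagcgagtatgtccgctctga
NDUFA10: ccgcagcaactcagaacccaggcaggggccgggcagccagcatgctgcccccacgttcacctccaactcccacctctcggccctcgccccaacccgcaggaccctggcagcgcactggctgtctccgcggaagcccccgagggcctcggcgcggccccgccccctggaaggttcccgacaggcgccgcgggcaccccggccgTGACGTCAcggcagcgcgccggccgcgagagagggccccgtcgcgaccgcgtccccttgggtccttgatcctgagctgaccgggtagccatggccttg
Against the set of 5, SDHA, with 4 NRF1 matches, differed by -0.49 in the Het_8 set and -1.26 in Het_9 and Het_10. SDHD, with 1 NRF1 match, differed by -0.63 in the Het_8 set and -0.02 in Het_9 and Het_10. Members with NRF1 matches went both ways in the Het_8 set: UQCR10, for example, differed by 0.37 and NDUFA8 by -0.46. Whether motifs and levels go together was not tested. SDHB, with the CREB letters, differed by 0.14 in the Het_8 set and 0.16 in Het_9 and Het_10. NDUFB2 and NDUFA10 share the CREB letters and had opposite differences in the Het_8 set, -0.39 and 0.68.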

How the data were processed

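Raw read counts per gene were deposited by the authors, 1 column per library with no pooling. Per the submitters' processing notes, the build was GRCh38 and the tools were FastQC, STAR, featureCounts and DESeq2. The sources used here give no versions, counting options, annotation or strand setting. Counts from 10000 upwards were deposited with 4 significant digits. Of 21174 identifiers, 20804 were matched to GENCODE 44 symbols. Each library pair differed by more than sampling noise (chi-square per gene of 7.77 or more), and the labels do not name separate cultures, so the p-values reflect spread among these libraries, which may be technical.

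From the counts, edgeR 4.0.16 in R 4.3.3 (TMM, filterByExpr, robust quasi-likelihood test, two-sided, Benjamini-Hochberg adjustment over all 11961 genes tested, threshold 0.05) compared 5 CREBBP+/- with 5 CREBBP+/+ libraries. CPM carry TMM factors. SE and 95% intervals come from the same fit. Log2 CPM of genes other than the members and CREBBP were clustered by average linkage to give the library sets. The 13 genes grouped with complex IV include NDUFA4, NDUFA4L2 and COX7A2L, and the 18 of complex V include ATP5IF1. DESeq2 1.42.0, limma-voom (limma 3.58.1), other scalings and filters, the sets as a covariate and leaving libraries out were alternatives; DESeq2 with libraries left out and another transcript length for TPM were added after the data were seen. The fits were tested on simulated data.

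Named members follow a rule: those called or without overlap between genotypes; per complex the 3 smallest p, the highest TPM and the largest range over sets; CYCS, CYC1, alternative isoforms, ATP5IF1 and members on chromosome 8. The members, lists and rule were chosen with earlier results of these data known.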

Additional observations from a re-analysis of the deposited data

Results flagged for a closer look

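A library was singled out where it lay far from the other 4 of its genotype by Dixon's criterion at the 95% level. Of 70 groups of 5 values checked, 7 were singled out. Chance singles out about 1 in 20 of independent groups. The groups here share libraries, and some members were named for their range over the sets or for their chromosome. That rate is thus not a yardstick for the 7. Of the 7, 5 were Het_8 as the lowest CREBBP+/- library, in log2 CPM: ATP5MC3 at 7.86 with the next library at 8.20, COX6C at 6.72 (next 7.61), NDUFAF6 at 3.69 (next 4.47), NDUFB9 at 5.97 (next 6.63) and SDHD at 7.24 (next 7.90). COX6C, NDUFAF6, NDUFB9 and SDHD were also low in WT_1 and WT_2, the CREBBP+/+ libraries that clustered with Het_8. CYC1 was highest among CREBBP+/- libraries in Het_10, at 7.25 with the next at 7.10. Among CREBBP+/+ libraries, WT_1 had the lowest summed level of complex IV, 1640 CPM, with the next at 1775 CPM.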

How the results depend on the processing

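Under limma-voom, 3 other sets of scaling factors, 2 other filters and the library sets as a covariate, edgeR or voom called 0 genes and 0 members, and the median log2 fold change of the members stayed below 0 (-0.09 to -0.04 with libraries left out, -0.04 without Het_9 and Het_10). DESeq2 called 32 genes, 190 with the library sets as a covariate and 13 without Het_9 and Het_10, each time with 1 member, CYC1. Leaving out each library, edgeR called 0 to 1 genes (1 without Het_6) and DESeq2 13 to 105 genes and 0 to 1 members. Without any 1 library the medians ran from -0.11 to -0.04 in complex I, -0.12 to -0.06 in II, -0.11 to -0.05 in III, -0.13 to -0.06 in IV and -0.08 to -0.02 in V. With the library sets as a covariate the median of complex V turned to 0.00147 in edgeR and 0.0072 in DESeq2, and those of the other complexes stayed below 0.

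None of the sign changes that follow concerns a called gene, and their cause was not tested. ATP5MC3 turned to 0.000664 under DESeq2, 0.000723 with DESeq2 size factors, 0.0216 with upper-quartile factors and 0.00163 with TMM factors computed without the members. UQCRB turned to -0.00482 under voom, -0.00228 with no filter, and -0.0297 and -0.0236 with the sets as a covariate in edgeR and DESeq2. With that covariate, COX7A2L was 0.0609 in edgeR and 0.0669 in DESeq2, SDHA 0.0941 and 0.0998, SDHD -0.0154 and -0.00932, and COX7A2 -0.00264 in edgeR. Without Het_9 and Het_10, COX7A2L was 0.0713 in edgeR and 0.0731 in DESeq2, NDUFA4 0.0233 and 0.0253, and SDHA 0.13 in both. With 1 library left out, ATP5F1B ranged from -0.13 to 0.0331, ATP5MC3 from -0.0243 to 0.0613, COX6B1 from -0.17 to 0.00699, COX7A2 from -0.0392 to 0.0627, CYCS from -0.0246 to 0.0960, NDUFA4L2 from -0.29 to 0.0370, NDUFB9 from -0.22 to 0.0189 and UQCRB from -0.0849 to 0.11. Of the 10 members highest in TPM by the union of exons, 2 were among the 10 highest by CPM and 5 by canonical length, so no order of levels is given beyond ATP5F1B.

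No paired analysis was possible because the CREBBP+/- columns carry numbers that no CREBBP+/+ column shares. With 5 libraries per genotype and sets that cross it, small differences stay within the spread, most of all for the 12 members with wide intervals.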
